A study of Mus musculus with 11 samples.

Results

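TAM-MG, the microglia among the tumour-associated macrophages and microglia of a glioma, were the subject of 5 of the 11 RNA-seq libraries of the study. They were sorted as single live CD11b+ CD45low cells from GL261 allografts, tumours of a mouse glioma line implanted into the brain of C57BL/6 hosts. The libraries were chosen by their sample labels alone: 2 came from Rheb1 fl/fl hosts (libraries 74 and 78, labelled WT) and 3 from Cx3cr1-Rheb1 Δ/Δ hosts (libraries 54, 63 and 65, labelled Rheb1 KO). Both groups carried Rheb1 alleles with exon 3 flanked by loxP sites and both were given tamoxifen. Only the Δ/Δ hosts also carried Cx3cr1-CreERT2, a tamoxifen-activated Cre expressed from the Cx3cr1 locus, so the Cre and the deletion cannot be told apart in this comparison. Tumour cells were injected at 6 weeks of age, 3 weeks after tamoxifen, and tumours were collected 3 weeks after injection. Whether a library holds 1 mouse or a pool was not stated in the sources used here, so p-values measure only the spread between these libraries.

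Rheb is a small GTPase that, when loaded with GTP at the lysosome, switches on mTORC1, the kinase complex that couples nutrients and growth factors to protein synthesis, ribosome production and metabolism. The TSC complex turns Rheb off, and Akt, downstream of PI3K, relieves that brake. Microglia are the resident macrophages of the brain. They depend on CSF1R signalling, express Sall1, P2ry12 and Tmem119 at rest, and answer interferons and Toll-like receptor ligands through STAT, IRF and NF-κB factors. The comparison addressed what loss of Rheb1 changes in the transcriptome of TAM-MG.

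Rheb exon 3, the segment removed by Cre, is shown because the whole contrast rests on its loss. In Rheb-201 it is a coding exon of 68 bases on the minus strand of chromosome 5 (GRCm38 chr5:24813798-24813865), and 68 leaves a remainder of 2 when divided by 3, so its removal shifts the reading frame. It makes up 3.81% of the transcript of 1784 bases and 8 exons, and the counts per gene therefore include reads from exons that the deletion leaves in place.
Rheb exon 3: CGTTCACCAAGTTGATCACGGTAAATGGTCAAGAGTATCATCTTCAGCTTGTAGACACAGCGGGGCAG

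Rheb (ENSMUSG00000028945) was measured at 86.5 and 164 CPM (counts scaled to library size, with TMM) in fl/fl libraries 74 and 78, and at 67.8, 70.0 and 71.2 CPM in Δ/Δ libraries 54, 63 and 65. Every Δ/Δ library lay below both fl/fl libraries, and the Δ/Δ level was 1.80-fold lower, with a log2 difference (Δ/Δ minus fl/fl) of -0.85 ± 0.34 (SE, n = 2 against 3, adjusted p = 0.552, edgeR's quasi-likelihood test). This difference did not pass the test. Cx3cr1, which encodes the fractalkine receptor and carries the Cre, was at 1080 and 420 CPM in fl/fl and at 1024, 1147 and 778 CPM in Δ/Δ libraries, and the groups overlapped (log2 difference 0.39 ± 0.45).

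Depth was similar in all 5 libraries, from 20765767 to 29947977 counts. The number of genes with a count was not: 15012 and 15453 genes in fl/fl against 16383 to 16961 in Δ/Δ libraries. The share of counts from the mitochondrial genome ran from 1.05 to 2.23%. On log2(TPM + 1), genotype held 32.3% of the variance, the highest of the 10 ways to split 5 libraries into 2 and 3, with an exact permutation p of 0.1, the smallest that this design can give. The fl/fl libraries correlated with each other at r = 0.842 across 12223 genes, the Δ/Δ libraries at 0.867 to 0.898, and libraries of different genotype at 0.826 to 0.884, so the fl/fl pair was no closer to each other than to some Δ/Δ libraries. The 2 fl/fl libraries stood apart in immediate early genes, which cell dissociation is known to induce. Jun, a subunit of the AP-1 factor, was at 2415 and 230 CPM in fl/fl and at 1875, 1299 and 1203 CPM in Δ/Δ libraries, and the summed level of the 18 genes of that list was 21917 and 6981 CPM against 15698, 17615 and 14615 CPM. The part of these 2 libraries in the results below was not tested beyond the values without each of them.

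The gate was checked on markers. All 15 markers of resting microglia were counted in every library, with a summed level of 22378 and 26968 CPM in fl/fl and 26444 to 37846 CPM in Δ/Δ libraries, and the 15 markers shared by microglia and macrophages summed to 28934 to 41960 CPM. Markers of monocyte-derived macrophages, which the CD45low gate is meant to leave out, summed to 1269 and 1580 CPM in fl/fl and to 2015, 651 and 678 CPM in Δ/Δ libraries. Lyz2, a lysozyme gene of myeloid cells, was the largest single part of that sum. Border macrophage markers had a lower sum in every Δ/Δ library, at 124 and 180 CPM against 68.1, 44.7 and 45.6 CPM. All 7 tested members had negative differences (median -1.28). Of these, 2 (28.6%) were lower in every Δ/Δ library, against 11.5% of all genes. Mrc1, the mannose receptor, was at 37.1 and 42.0 CPM against 29.0, 11.6 and 10.4 CPM. Without fl/fl 78 the list gave 2 higher and 5 lower, with a median of -0.99. The part of these markers in the results below was not tested.

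Of 50686 genes in the table, 21594 had a count in at least 1 library and 14872 were tested. No gene (0%) passed an adjusted p of 0.05 with at least a 1.5-fold difference by edgeR's quasi-likelihood test, where the smallest adjusted p was 0.502. An unadjusted p under 0.05 was reached by 1155 genes, 813 of them higher and 342 lower in Δ/Δ. At unadjusted p ≤ 0.02 with a 1.5-fold difference, the level at which the study drew its TAM-MG genes, 431 genes (2.90%) were higher and 149 (1.0%) were lower. These 2 counts are from the quasi-likelihood test. For Isg15 and Usp18, which are among its TAM-MG genes, the study names edgeR's likelihood ratio test. Run here at the same level, that test gave more genes, 874 higher and 216 lower. The level is used below only to name genes, with the quasi-likelihood test. The likelihood ratio test of edgeR called 245 genes (175 higher, 70 lower) at the adjusted threshold, DESeq2 called 473 (385 and 88), and a fit over all 11 libraries called 65 (55 and 10). Groups did not overlap for 2167 genes (14.6%) that were higher in every Δ/Δ library and 1703 (11.5%) that were lower in every Δ/Δ library.

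Most of the excess of higher genes lay among sparsely counted ones. Of the 14872 tested genes, 10055 had 10 or more counts in every library, and these are called well-counted. None of them (0%) was called. Among them 146 (1.45%) were higher and 99 (0.985%) were lower at unadjusted p ≤ 0.02 and 1.5-fold, and the groups did not overlap for 1299 (12.9%) that were higher and 1393 (13.9%) that were lower. Their median log2 difference was 0.002. The other 4817 tested genes had a median difference of 0.61, with 285 higher and 50 lower at the same level, and 3809 of them were at 0 in at least 1 library. The filter asked for counts in 2 libraries, the size of the smaller group. A gene counted only in Δ/Δ could thus enter through 2 of 3 libraries, while one counted only in fl/fl needed both. Of genes absent in one group, as defined below, 326 of 414 absent in fl/fl were tested and 39 of 118 absent in Δ/Δ. With at least 1 count as the only filter, 335 of all genes were higher and 130 lower at the same level. Of the genes called by the likelihood ratio test, 181 of 245 had a zero in some library and 60 were well-counted, and of those called by DESeq2, 273 of 473 and 176. The limit of 10 counts itself marked no step: 292 genes with a lowest count of 10 to 14 had a median difference of 0.14, and 425 genes with a lowest count of 5 to 9 a median of 0.03.

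**Figure D1:**
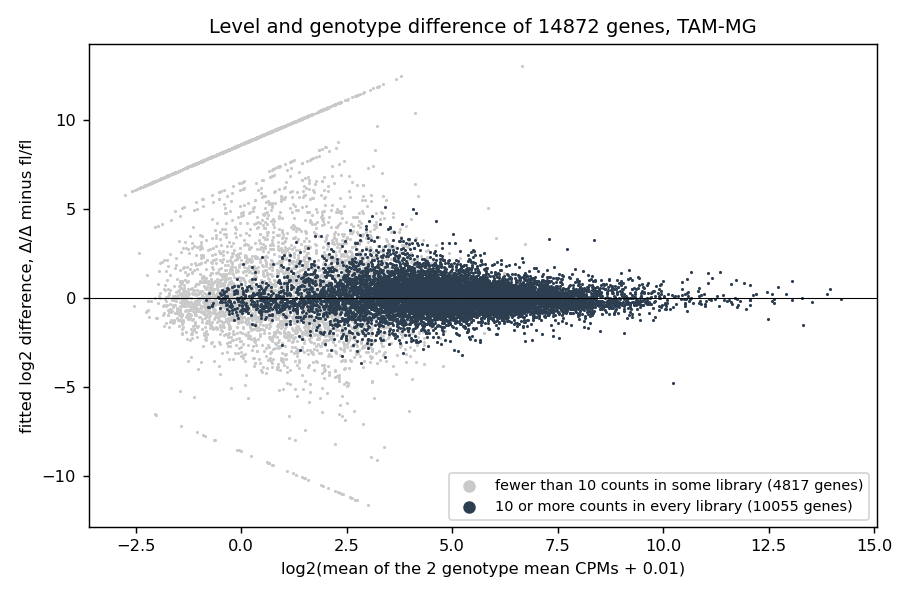
The y axis gives the fitted log2 difference between genotypes (Δ/Δ minus fl/fl) and the x axis the log2 of the mean CPM of both genotypes plus 0.01, with 1 point for each of the 14872 tested genes. The 10055 well-counted genes (dark) have a median of 0.002, the 4817 others (grey) a median of 0.61, and the straight lines of grey points at the top and bottom are genes at or near 0 in 1 genotype, whose fitted difference is no estimate of size.

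The direction of all genes together depended on the scaling. With libraries centred to the same mean log2 CPM in place of TMM, the median difference over all genes was -0.55 in place of 0.08, and 238 genes were higher and 995 lower at unadjusted p ≤ 0.02 and 1.5-fold, against 431 and 149. List medians below are to be read beside the median of 0.08 over all genes tested. The counts at this level also moved with single libraries. Without fl/fl 78 they totalled 963 and without Δ/Δ 54 they totalled 900, against 580 with all 5 libraries. Among well-counted genes the total of 245 became 82 without Δ/Δ 63, 95 without Δ/Δ 65 and 400 without Δ/Δ 54.

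The well-counted genes with the smallest p that were higher in Δ/Δ included regulators of small GTPases, of mTORC1 and of DNA supply, together with 1 transcription factor of microglial identity. Rgl2, an exchange factor for Ral GTPases, was at 1.03 and 1.498 CPM in fl/fl and at 38.5, 26.2 and 37.3 CPM in Δ/Δ libraries (log2 difference 4.75 ± 0.68). Arfgef2, an exchange factor for Arf GTPases, was at 1.37 and 0.62 CPM against 23.4, 36.3 and 37.8 CPM (5.01 ± 0.79). Both genes were close to the limit of counting in fl/fl, with 33 and 29 counts for Rgl2 and 44 and 12 counts for Arfgef2.
Sall1, a zinc finger repressor that defines microglial identity, was far above the counting limit in every library, at 84.9 and 66.1 CPM in fl/fl and at 194, 244 and 243 CPM in Δ/Δ libraries, 3.00-fold higher (1.59 ± 0.28, adjusted p = 0.502, edgeR's quasi-likelihood test). Nprl3, a subunit of the GATOR1 complex that restrains mTORC1 when amino acids are scarce, was at 4.90 and 8.83 CPM against 50.8, 39.5 and 52.9 CPM (2.80 ± 0.52). It overlaps Mpg, a DNA repair glycosylase gene on the opposite strand that is itself on the list (2.65 ± 0.54), and the libraries do not keep strand, so reads of the 2 genes cannot be told apart. Strada, a pseudokinase that activates LKB1 upstream of AMPK, was at 3.37 and 8.06 CPM against 52.8, 40.5 and 52.4 CPM (3.09 ± 0.59), and overlaps Ccdc47 on the same strand. For each of these genes every Δ/Δ library lay above both fl/fl libraries.
Sipa1, a GTPase-activating protein for Rap, was at 35.6 and 53.6 CPM against 156, 114 and 169 CPM (1.72 ± 0.35). Nisch, an imidazoline-binding regulator of integrin signalling, was at 44.2 and 53.2 CPM against 119, 129 and 117 CPM (1.32 ± 0.27). Itprid2 was at 15.2 and 14.3 CPM against 54.7, 107 and 73.4 CPM (2.41 ± 0.43). Rrm2b, a ribonucleotide reductase subunit, was at 1.25 and 1.55 CPM against 18.1, 19.9 and 26.9 CPM (3.95 ± 0.81). None of the 10 genes passed the adjusted threshold of edgeR's quasi-likelihood test, and both the likelihood ratio test and DESeq2 called all 10. The 10 were picked for small p in these same libraries. Calls by other tests and groups that stand apart are thus built into the choice and are no independent evidence.

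The well-counted genes with the smallest p that were lower in Δ/Δ included a chemokine, interferon-induced genes and a subunit of the phagocyte oxidase. Cxcl13, the chemokine that draws B cells through CXCR5, was at 1245 and 3443 CPM in fl/fl and at 96.1, 127 and 32.2 CPM in Δ/Δ libraries, 27.5-fold lower (log2 difference -4.78 ± 0.73). Mlkl, the effector of necroptosis, was at 73.2 and 63.6 CPM against 5.35, 9.71 and 7.39 CPM, 9.13-fold lower (-3.19 ± 0.45). Cybb, the catalytic subunit of the NADPH oxidase, was at 368 and 484 CPM against 159, 131 and 116 CPM, 3.15-fold lower (-1.65 ± 0.27). The groups were well apart for all 3 genes.
Ifit2 and Ifit3 belong to the interferon targets described below. Pola1, the catalytic subunit of DNA polymerase alpha, was at 63.9 and 61.9 CPM against 3.75, 9.06 and 11.03 CPM (-2.98 ± 0.58). Rpa1, the large subunit of the single-strand DNA-binding complex of replication and repair, was at 180 and 150 CPM against 51.9, 53.6 and 56.9 CPM (-1.61 ± 0.25). Ppa1, a pyrophosphatase, Exosc10, an exosome nuclease, and Pum3, an RNA-binding protein, had log2 differences of -1.47, -1.59 and -1.38. The adjusted p was 0.502 for each of the 10 genes (edgeR's quasi-likelihood test), and both the likelihood ratio test and DESeq2 called all 10. Since these 10 were likewise picked for small p, such calls and the separation of groups are no independent evidence.

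Type I interferon targets were the list with the most members at unadjusted p ≤ 0.02. Interferon-α and interferon-β act through IFNAR and the factor ISGF3, which binds the interferon-stimulated response element (ISRE) in target promoters. All 35 genes of the list were tested, 33 of them were lower and 2 higher in Δ/Δ, and 18 were lower at unadjusted p ≤ 0.02 and 1.5-fold, against 1.0% of all genes tested. The list's median log2 difference was -1.10, beside 0.08 over all genes, and 23 genes were lower in every Δ/Δ library, against 11.5% of all genes. The summed level of the 35 genes was 7347 and 7240 CPM in the fl/fl libraries and 3773, 3293 and 3269 CPM in the Δ/Δ libraries.

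**Figure D2:**
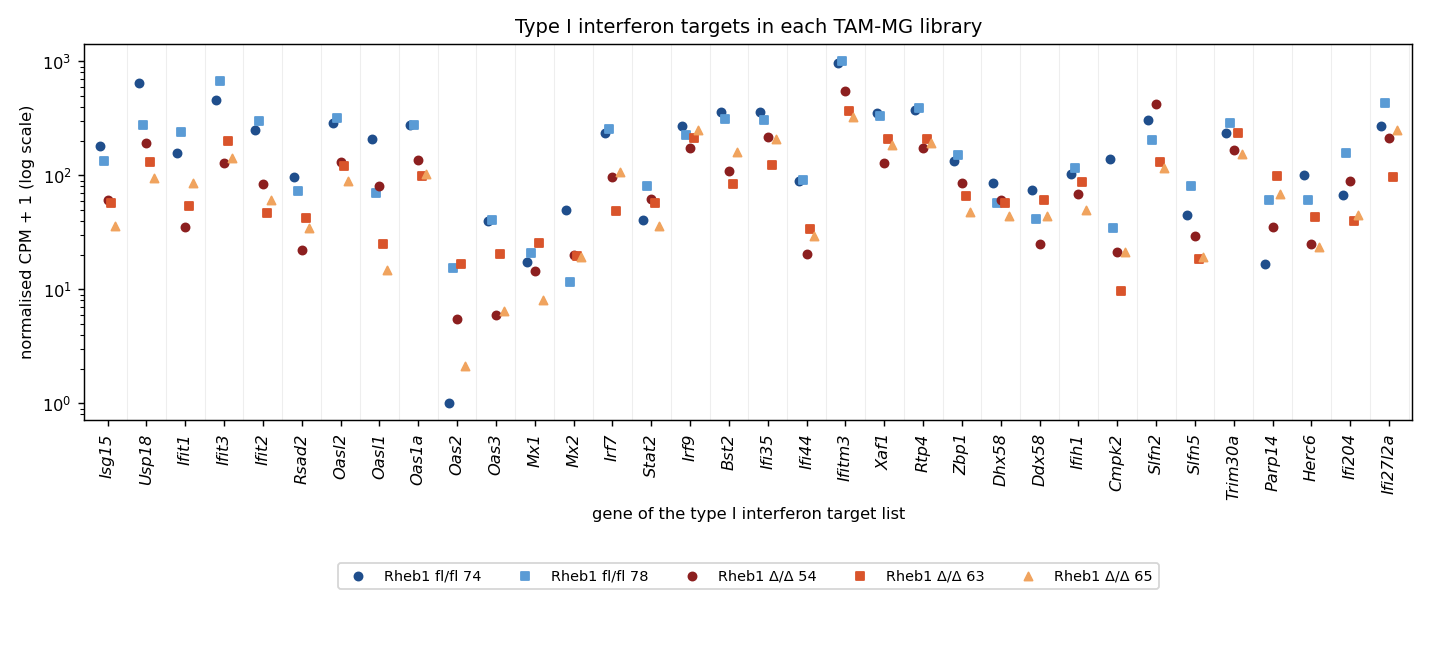
The y axis gives CPM plus 1 on a log scale for 34 of the 35 type I interferon targets along the x axis, with 1 point per library, blue for fl/fl and red to orange for Δ/Δ. In 23 of the 34 genes shown all 3 Δ/Δ points lie below both fl/fl points, and Parp14 has a positive difference.

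Promoter windows of 5 of these genes are shown because they carry the sequence shared by many targets of ISGF3. Each is the 250 bases before the RefSeq start site (RefSeq, GRCm38.p6), 5′ to 3′ in the direction of transcription, and capitals mark matches on either strand to the ISRE core (GAAA, any 2 bases, GAAA). The windows lie at chr4:156200819-156201068 on the minus strand (Isg15, 3 overlapping matches), chr19:34640639-34640888 on the plus strand (Ifit1), chr19:34583279-34583528 on the plus strand (Ifit3), chr12:26456453-26456702 on the minus strand (Rsad2) and chr8:71537473-71537722 on the minus strand (Bst2).
Isg15: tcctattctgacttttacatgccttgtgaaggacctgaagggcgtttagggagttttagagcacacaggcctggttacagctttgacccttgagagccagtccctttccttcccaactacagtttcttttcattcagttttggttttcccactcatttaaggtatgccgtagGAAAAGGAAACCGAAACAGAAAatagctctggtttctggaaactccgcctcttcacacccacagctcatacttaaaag
Ifit1: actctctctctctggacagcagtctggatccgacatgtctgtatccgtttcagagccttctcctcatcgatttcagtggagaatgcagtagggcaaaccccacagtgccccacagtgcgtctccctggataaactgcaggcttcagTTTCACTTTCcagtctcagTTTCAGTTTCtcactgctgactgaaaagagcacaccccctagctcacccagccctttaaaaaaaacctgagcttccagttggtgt
Ifit3: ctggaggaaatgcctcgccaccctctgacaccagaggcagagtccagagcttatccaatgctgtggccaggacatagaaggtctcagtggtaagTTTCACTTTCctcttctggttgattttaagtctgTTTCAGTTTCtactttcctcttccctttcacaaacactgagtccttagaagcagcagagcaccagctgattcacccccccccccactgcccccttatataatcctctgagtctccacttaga
Rsad2: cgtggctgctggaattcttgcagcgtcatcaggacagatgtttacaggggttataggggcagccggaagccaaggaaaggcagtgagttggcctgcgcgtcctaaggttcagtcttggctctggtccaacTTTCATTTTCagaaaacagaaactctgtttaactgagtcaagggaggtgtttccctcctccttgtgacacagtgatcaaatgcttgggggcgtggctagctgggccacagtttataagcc
Bst2: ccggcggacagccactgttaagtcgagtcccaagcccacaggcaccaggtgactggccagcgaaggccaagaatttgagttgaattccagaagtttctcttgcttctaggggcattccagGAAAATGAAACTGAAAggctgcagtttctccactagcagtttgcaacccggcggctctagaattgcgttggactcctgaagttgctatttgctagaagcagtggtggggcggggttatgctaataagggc
The motif occurred in 13 of 24 listed genes with a matched promoter entry (54.2%) and in 1079 of 27025 promoters of the table (3.99%), counting 250 bases before to 50 bases after the start. The median log2 difference was -1.39 for the 13 listed genes with the motif and -1.44 for the 11 without. Among well-counted genes outside the list, 283 of 7359 held the motif (3.85%), and their median difference was -0.20, against 0.03 for the others. A match is a description of these letters and not a site of binding.

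Isg15 encodes a ubiquitin-like protein that is conjugated to targets during the interferon response. It was at 178 and 133 CPM in fl/fl and at 59.4, 56.6 and 35.3 CPM in Δ/Δ libraries, 3.09-fold lower (log2 difference -1.63 ± 0.34). Usp18, the protease that removes Isg15 and damps signalling at IFNAR2, was at 639 and 275 CPM against 191, 130 and 94.5 CPM, 3.30-fold lower (-1.72 ± 0.47). Both had been named by the study from these same libraries, so their direction is not independent evidence. The IFIT proteins, which bind viral RNA, followed the same order of groups.
Ifit1 was at 155 and 240 CPM against 34.2, 53.0 and 84.7 CPM (-1.78 ± 0.45). Ifit2 was at 249 and 297 CPM against 82.8, 45.5 and 59.4 CPM (-2.13 ± 0.33). Ifit3 was at 461 and 677 CPM against 128, 197 and 140 CPM (-1.87 ± 0.32), and its reads may be shared with its near-identical neighbour Ifit3b. For each of the 3 genes the highest Δ/Δ library was lower than the lowest fl/fl library.
Antiviral enzymes of the list were lower as well. Rsad2, the radical-SAM enzyme viperin, was at 96.2 and 72.2 CPM against 21.4, 41.6 and 33.3 CPM (-1.39 ± 0.40), and Cmpk2, the nucleotide kinase gene beside it in the genome, at 138 and 33.4 CPM against 20.4, 8.68 and 20.5 CPM (-2.37 ± 0.71). Oas1a, an oligoadenylate synthetase, was at 273 and 278 CPM against 136, 98.6 and 102 CPM (-1.30 ± 0.26), and its relative Oasl2 at 288 and 316 CPM against 131, 121 and 87.8 CPM (-1.41 ± 0.27). In all 4 the groups were separate, with Cmpk2 the most variable between the fl/fl libraries.
Irf7, the factor that amplifies interferon production, was at 234 and 253 CPM against 95.3, 47.8 and 107 CPM (-1.55 ± 0.39). Bst2, the tetherin that holds budding virus at the membrane, was at 361 and 309 CPM against 109, 83.1 and 159 CPM (-1.52 ± 0.34). Ifitm3, a membrane protein that blocks viral entry, was at 958 and 1004 CPM against 545, 369 and 323 CPM (-1.25 ± 0.30). Ifi44, Slfn5, Herc6, Zbp1, Rtp4 and Xaf1 had log2 differences of -1.74, -1.53, -1.44, -1.10, -1.005 and -0.97. The adjusted p of the 18 genes ran from 0.502 to 0.507 by edgeR's quasi-likelihood test. The likelihood ratio test called 11 of the 35 genes lower, beside 70 of all 14872 genes tested. DESeq2 called 12, beside 88 lower genes in all, and the fit over all 11 libraries called 0, beside 10. In that last fit 10 of the 35 were at unadjusted p ≤ 0.02 and 1.5-fold, beside 297 lower genes in all.
Parp14, an ADP-ribosyltransferase, was among the 2 members that were not lower, with a log2 difference of 0.81 ± 0.71. Leaving out 1 library at a time, 30 to 32 of the 35 genes were lower. The list's median was -1.01 without fl/fl 74 and -1.02 without fl/fl 78, beside 0.37 and 0.39 over all genes. Lower at unadjusted p ≤ 0.02 and 1.5-fold were 16 without Δ/Δ 54, 12 without Δ/Δ 63 and 9 without Δ/Δ 65. Over all genes tested these numbers were 291, 111 and 101.

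Receptors and transducers of interferon were higher on the whole where their targets were lower. Of 19 tested genes 16 were higher, with a median log2 difference of 0.58 (0.40 over its 16 well-counted members), and 7 were higher in every Δ/Δ library, against 14.6% of all genes. The median was 0.43 without fl/fl 78 and 0.59 without fl/fl 74, beside 0.39 and 0.37 over all genes. Ifnar1, a chain of the type I receptor that the study names, was at 38.6 and 34.0 CPM in fl/fl and at 91.1, 66.5 and 69.8 CPM in Δ/Δ libraries, 2.09-fold higher (1.06 ± 0.33, adjusted p = 0.506, edgeR's quasi-likelihood test). Ifnar2, the other chain, was at 39.3 and 73.5 CPM against 90.3, 76.6 and 74.2 CPM (0.51 ± 0.37). The interferon-γ receptor chains Ifngr1 and Ifngr2 had differences of 0.12 and 0.30, with overlapping groups. With libraries centred to the same mean, 8 of the 19 were higher and 11 lower, with a median of -0.07 beside -0.55 over all genes.
Interferon-γ targets were less uniform: 15 of 22 tested were lower and 7 higher, with a median of -0.35. Irgm1, an immunity-related GTPase, was at 848 and 829 CPM against 375, 453 and 352 CPM, 2.13-fold lower (-1.09 ± 0.24), and was the 1 member at unadjusted p ≤ 0.02. Cxcl9, a chemokine for CXCR3, was at 32.4 and 37.3 CPM against 6.06, 16.4 and 4.54 CPM (-1.95 ± 0.74), and Iigp1 had a difference of -0.84. Irf1 (0.61) and Gbp2 (-0.50) overlapped between groups. The difference between the type I and the interferon-γ lists was not tested.

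Among 20 tested chemokines and chemokine receptors, 10 were higher and 10 lower, with a median of -0.02. At unadjusted p ≤ 0.02 and 1.5-fold 3 were lower and none higher, against 1.0% and 2.90% of all genes tested. Besides Cxcl13, these were Ccl5, a chemokine that attracts T cells, and Cxcl16, the ligand of CXCR6. Ccl5 was at 87.7 and 269 CPM in fl/fl and at 22.3, 31.7 and 46.7 CPM in Δ/Δ libraries, 5.31-fold lower (-2.41 ± 0.56). Cxcl16 was at 478 and 617 CPM against 319, 233 and 322 CPM (-0.91 ± 0.27). Ccl5 and Cxcl13 are genes that the study names from these libraries, so their direction is not independent evidence. Ccl3 and Ccl4, the macrophage inflammatory proteins, had differences of 0.49 and 0.54 with overlapping groups.
Cytokines gave 8 higher and 8 lower of 16 tested (median -0.04, and 0.48 over 11 well-counted members). Without fl/fl 74 the list was 14 higher and 3 lower, with a median of 1.76 beside 0.37 over all genes. Il12b, which encodes the p40 chain shared by IL-12 and IL-23, was at 54.4 and 31.1 CPM in fl/fl and at 3.39, 11.2 and 8.17 CPM in Δ/Δ libraries, 5.61-fold lower (-2.49 ± 0.70), and was the 1 member at unadjusted p ≤ 0.02. Tnf was at 994 and 136 CPM against 737, 380 and 253 CPM (-0.31 ± 0.84), and Il1b at 559 and 141 CPM against 303, 293 and 226 CPM (-0.35 ± 0.56). For both, all Δ/Δ libraries lay between the 2 fl/fl libraries. Il6 was at 11.8 and 2.53 CPM against 14.05, 32.7 and 25.5 CPM (1.74 ± 0.91), and Il10 had no count in any library.

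NF-κB pathway genes were mostly higher: 23 of 28, with a median log2 difference of 0.77 (0.57 over its 26 well-counted members) beside 0.08 over all genes, and 10 were higher in every Δ/Δ library, against 14.6% of all genes. Nfkb1, which encodes the p105 precursor of p50 and is named by the study, was at 63.9 and 64.0 CPM in fl/fl and at 88.8, 186 and 166 CPM in Δ/Δ libraries, 2.30-fold higher (1.20 ± 0.39, adjusted p = 0.519, edgeR's quasi-likelihood test). Rel, the c-Rel subunit, was at 39.8 and 24.1 CPM against 65.9, 99.4 and 68.8 CPM (1.29 ± 0.40). Tab2, an adaptor of the kinase TAK1, was at 22.2 and 38.1 CPM against 66.8, 132 and 137 CPM (1.89 ± 0.47). These 3 genes were higher in every Δ/Δ library.
Card9, an adaptor downstream of C-type lectin receptors, was at 18.6 and 17.9 CPM against 113, 74.6 and 29.6 CPM (1.99 ± 0.63) and overlaps Gm13562, a transcript on the opposite strand whose reads cannot be told apart from its own, and Ikbkb, the IKKβ kinase, had a difference of 0.96 ± 0.38. Rela, the p65 subunit, overlapped between groups at 20.7 and 63.5 CPM against 84.2, 84.3 and 58.1 CPM (0.84 ± 0.54). Nfkbia, an inhibitor that NF-κB itself induces, differed most between the 2 fl/fl libraries, at 3482 and 535 CPM, with 1998, 1769 and 1462 CPM in the Δ/Δ libraries (-0.20 ± 0.72). Without fl/fl 74 the list's median was 1.06 and without fl/fl 78 it was 0.43, beside 0.37 and 0.39 over all genes. Under the centred scaling 15 genes were higher and 13 lower.

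PI3K and Akt genes were higher in 16 of 20 cases, with a median of 0.78, and 5 (25%) were higher in every Δ/Δ library, against 14.6% of all genes. The median was 0.65 without fl/fl 74 and 0.53 without fl/fl 78, beside 0.37 and 0.39 over all genes. With centred libraries 12 were higher and 8 lower (median 0.15, beside -0.55 over all genes). Pik3cg, the catalytic p110γ subunit of class I PI3K, was at 109 and 80.8 CPM in fl/fl and at 184, 183 and 206 CPM in Δ/Δ libraries, 2.01-fold higher (1.01 ± 0.27, adjusted p = 0.502, edgeR's quasi-likelihood test). Pik3c2b, a class II enzyme, had no count in either fl/fl library and 235, 25 and 90 counts in the Δ/Δ libraries, at least 82.2-fold higher taking 3 counts over the fl/fl group as the floor. The study names both. Pik3ca (1.07 ± 0.74) and Pik3cb (0.62 ± 1.05), the p110α and p110β subunits, overlapped between groups.
Of 16 genes of the STAT3 pathway, 12 were higher (median 0.82) and none was at unadjusted p ≤ 0.02 with 1.5-fold. Stat3 itself was at 202 and 177 CPM in fl/fl and at 252, 155 and 183 CPM in Δ/Δ libraries (0.05 ± 0.30). Socs3, its feedback inhibitor, was at 216 and 55.6 CPM against 384, 229 and 286 CPM (1.14 ± 0.60), and the receptor chains Il6ra and Il10ra had differences of 1.001 ± 0.48 and 1.30 ± 0.42. These 3 genes were higher in every Δ/Δ library. Without Δ/Δ 54 the list gave 9 higher and 7 lower, with a median of 0.34. The median was 0.41 without fl/fl 78, where that of all genes was 0.39, and 1.14 without fl/fl 74.

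Pattern recognition receptors split evenly, with 9 higher and 9 lower of 18 tested (median 0.03). Tlr4, the receptor for lipopolysaccharide that the study names, was at 6.58 and 24.4 CPM in fl/fl and at 30.7, 84.8 and 110 CPM in Δ/Δ libraries (2.28 ± 0.81, adjusted p = 0.552, edgeR's quasi-likelihood test). Tlr2 and Tlr7 had differences of -0.68 and -0.72. Tlr5, the flagellin receptor, had no count in fl/fl libraries and 201, 409 and 17 counts in Δ/Δ libraries, at least 147-fold higher against the same floor, and Tlr9, the receptor for unmethylated CpG DNA, was at 0 and 0.413 CPM against 0, 1.38 and 1.02 CPM.

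Markers of resting microglia were higher in all 15 cases, with differences from 0.21 to 1.59 and a median of 0.55, beside 0.08 over all genes, and 9 were higher in every Δ/Δ library, against 14.6% of all genes and 12.9% of well-counted ones. P2ry12, the purinergic receptor that guides microglial processes, was at 1580 and 1327 CPM in fl/fl and at 1565, 4570 and 3313 CPM in Δ/Δ libraries (1.12 ± 0.49). Tmem119 was at 1734 and 1353 CPM against 3471, 2804 and 1913 CPM (0.82 ± 0.35). Olfml3, a secreted glycoprotein of microglia, was at 815 and 1173 CPM against 1932, 2150 and 2042 CPM, 2.05-fold higher (1.04 ± 0.28), and was with Sall1 1 of the 2 members at unadjusted p ≤ 0.02. The count of 15 higher was 13 without either fl/fl library. With centred libraries 7 were higher and 8 lower (median -0.07, beside -0.55 over all genes).

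**Figure D3:**
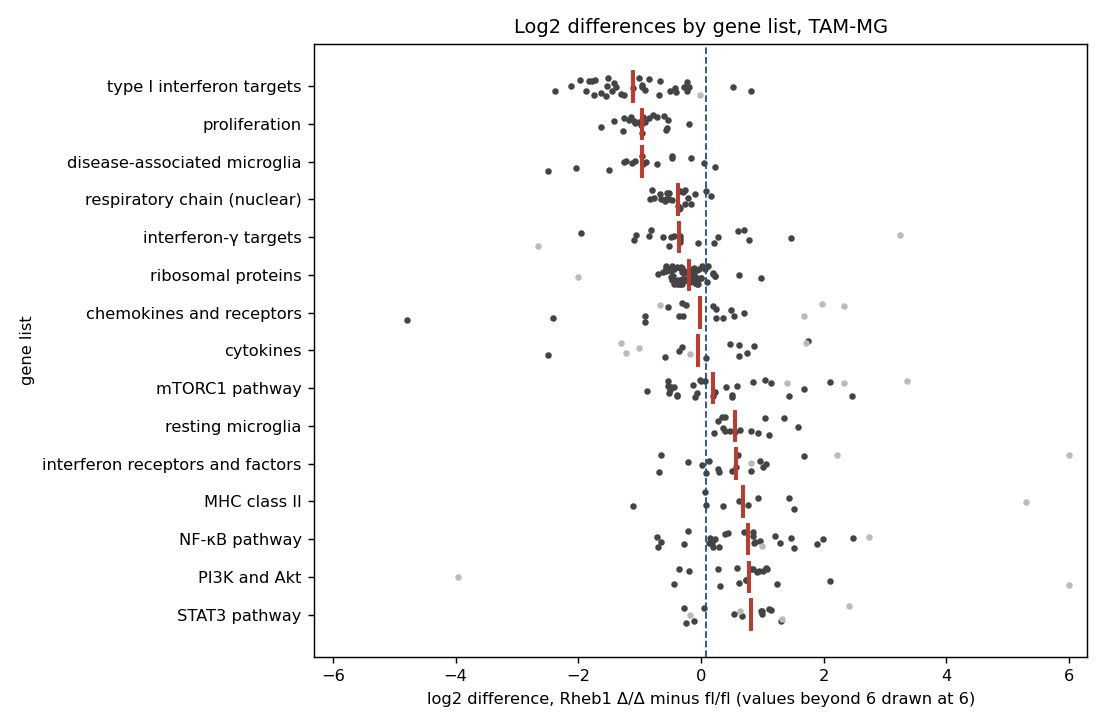
The x axis gives the log2 difference between genotypes (Δ/Δ minus fl/fl) of the tested members of 15 gene lists on the y axis, with 1 point per gene (dark where well-counted, grey otherwise), a red bar at the median of each list and a dashed line at the median of all genes tested (0.08). Type I interferon targets have a median of -1.10, proliferation genes of -0.97 and resting microglia markers of 0.55, and values beyond 6 are drawn at 6.

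Genes of disease-associated microglia, the state taken up around plaques and lesions, were lower in 14 of 16 cases, with a median of -0.95. Only 2 of them were lower in every Δ/Δ library (12.5% of the list), near the 11.5% of all genes. Itgax, the integrin chain CD11c, was at 132 and 79.0 CPM in fl/fl and at 18.2, 37.4 and 21.7 CPM in Δ/Δ libraries, 4.10-fold lower (-2.03 ± 0.45), and was the 1 member at unadjusted p ≤ 0.02. Apoe, the lipid carrier, was at 7700 and 22437 CPM against 11478, 2619 and 1854 CPM (-1.503 ± 0.89), and Δ/Δ 54 lay between the fl/fl libraries. Cst7 and Lpl had differences of -1.12 and -0.97 with overlapping groups, and Trem2, the lipid receptor upstream of this state, a difference of 0.22. The median was -0.45 without fl/fl 78 and -0.61 without Δ/Δ 65, and -1.54 without Δ/Δ 54.

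All 21 proliferation genes were lower, with a median of -0.97, and 12 were lower in every Δ/Δ library, against 11.5% of all genes, yet none was at unadjusted p ≤ 0.02. Top2a, the mitotic topoisomerase, was at 113 and 276 CPM in fl/fl and at 104, 65.9 and 73.3 CPM in Δ/Δ libraries (-1.26 ± 0.44). Cdk1 was at 137 and 139 CPM against 110, 45.1 and 42.3 CPM (-1.07 ± 0.48), Ccnb1 had a difference of -1.42 ± 0.57, and Mki67 was at 103 and 52.8 CPM against 60.5, 11.02 and 48.0 CPM (-0.97 ± 0.73). The summed level of the list was 1823 and 2374 CPM in fl/fl and 1694, 731 and 988 CPM in Δ/Δ libraries, so that Δ/Δ 54 lay closer to the fl/fl libraries than the other two did. Between 18 and 21 of the 21 genes were lower with any 1 library left out, and the median was then -1.33 to -0.63.

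Antigen presentation genes followed the library more than the genotype. Of 10 MHC class II genes 9 were higher (median 0.69). The median was 0.07 without Δ/Δ 65, with 5 higher and 4 lower, 0.27 without fl/fl 74 and 1.37 without fl/fl 78. H2-Aa, the class II alpha chain, was at 1041 and 1755 CPM in fl/fl and at 1072, 2753 and 7562 CPM in Δ/Δ libraries (1.44 ± 0.83), and the invariant chain Cd74 at 2658 and 8061 CPM against 2640, 6176 and 16021 CPM (0.63 ± 0.84). H2-Ab1 and H2-Eb1 had differences of 0.93 ± 0.81 and -1.11 ± 0.96. Class I genes gave 9 higher and 8 lower of 17 (median 0.08, and -0.29 without fl/fl 74 and 0.50 without fl/fl 78). H2-K1, H2-D1, B2m and Tap1 had differences of -0.10, 0.31, -0.27 and 0.28. H2-T22, a non-classical molecule, was at 311 and 302 CPM against 70.9, 104 and 15.6 CPM (-2.27 ± 0.72), and near-identical class I genes can share its reads. Costimulatory and checkpoint genes gave 7 higher and 8 lower of 15 (median -0.005, and 0.56 without fl/fl 74 and -0.34 without fl/fl 78), with Vsir, the checkpoint VISTA, at 559 and 513 CPM against 943, 1005 and 822 CPM (0.78 ± 0.25). Cd86 was lower in every Δ/Δ library, with a difference of -0.34, and Cd274, the ligand PD-L1, had a difference of 0.43.

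Effector genes of phagocytes did not move as a group. Of 16 complement and phagocytosis genes, 10 were higher and 6 lower (median 0.17, and -0.03 to 0.37 with 1 library left out), and in no case were the groups separate. C1qa, C1qb and C1qc, the subunits of C1q, had differences of -0.09, 0.00 and 0.23, and C3ar1 of -0.51. Of 9 tested genes of nitric oxide and oxidase, 6 were lower and 3 higher (median -0.31). Besides Cybb, the outlying gene was Arg1, the arginase of alternatively activated macrophages, with 1 and 0 counts in the fl/fl libraries and 562, 1069 and 13213 counts in the Δ/Δ libraries. Nos2, the inducible nitric oxide synthase, had 1 count in all 5 libraries together.

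Genes of the mTORC1 pathway itself showed no common direction: 18 of 31 tested were higher and 13 lower, with a median of 0.20 (0.04 over 28 well-counted members). Mtor, the kinase, was at 4.93 and 31.7 CPM in fl/fl and at 28.9, 23.2 and 29.8 CPM in Δ/Δ libraries (0.58 ± 0.83). Rptor, which encodes raptor, the subunit that defines mTORC1, was at 46.7 and 48.2 CPM against 119, 115 and 59.1 CPM (1.04 ± 0.40). Mlst8 and Rps6kb1, the S6 kinase, had differences of 0.01 and -0.40. Tfe3, a lysosomal transcription factor that mTORC1 holds in the cytoplasm, was at 43.0 and 10.5 CPM against 108, 127 and 112 CPM, 4.32-fold higher (2.11 ± 0.63), and was the 1 member at unadjusted p ≤ 0.02.

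Ribosomal protein genes, whose translation mTORC1 is known to promote, were lower in 65 of 78 cases, with a median of -0.20, and 30 were lower in every Δ/Δ library (38.5% of the list, against 11.5% of all genes). The summed level was 20985 and 21359 CPM in fl/fl and 19242, 15718 and 18798 CPM in Δ/Δ libraries. Rpl3, Rpl4, Rpl5 and Rpl6 had differences of -0.03, -0.12, 0.06 and -0.23. Nuclear genes of the respiratory chain were lower in 21 of 23 cases (median -0.37), 10 of them in every Δ/Δ library, with differences of -0.35 for Ndufa4, 0.16 for Sdha, -0.27 for Cox4i1 and -0.21 for Atp5b. No gene of either list was at unadjusted p ≤ 0.02 with 1.5-fold. The 14 tested genes of the mitochondrial genome had a median of 0.12 (-0.28 without fl/fl 74 and 0.87 without fl/fl 78), with mt-Co1 at 2401 and 5990 CPM against 3603, 5694 and 4951 CPM, mt-Nd1 and mt-Cytb at differences of -0.15 and 0.19, and mt-Atp6 at -0.25.
Targets of ATF4, the factor through which mTORC1 drives amino acid synthesis, were lower in 11 of 16 cases (median -0.41). Asns, asparagine synthetase, was at 87.6 and 98.5 CPM in fl/fl and at 35.7, 63.1 and 13.8 CPM in Δ/Δ libraries (-1.31 ± 0.62), and Psat1 had a difference of -1.23 ± 0.68 with overlapping groups. Atf4 itself was at 152 and 43.6 CPM against 181, 189 and 173 CPM (0.89 ± 0.53), and Ddit3 had a difference of -0.26. Glycolysis genes gave 10 lower of 17 (median -0.28), with Hk2, Pfkl, Ldha and Gpi1 at 0.25, 0.39, -0.52 and -0.28, but without fl/fl 78 it was 11 higher and 6 lower (median 0.26), and without Δ/Δ 54 the median was -0.63. Hk1, the hexokinase, had 0 and 1 counts in fl/fl and was at 4.64, 3.72 and 19.98 CPM in Δ/Δ libraries.
Sterol synthesis genes gave 11 lower of 20 (median -0.14), and Hmgcs1 and Sqle, enzymes of the pathway, had differences of -0.12 and 0.19. Lysosomal genes gave 15 lower of 21 (median -0.29), with Lamp1, Lamp2, Ctsl and Ctsz at -0.37, -0.29, 0.06 and -0.61. Without fl/fl 78 the medians of the sterol and lysosomal lists were 0.19 and 0.08, beside 0.39 over all genes.

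Differences of this size moved with exon length, taken over all annotated exons of a gene with overlaps counted once. When the well-counted genes were split into 5 classes of like size by exon length, the median log2 difference went from -0.18 in the shortest class (up to 1991 bases) through -0.09, 0.01 and 0.13 to 0.22 in the longest (7280 bases and more). This slope was seen in 3 libraries. The median deviation from the mean over libraries fell from 0.19 to -0.13 in fl/fl 78 and went from -0.11 to 0.27 in Δ/Δ 63 and from -0.04 to 0.18 in Δ/Δ 65, while it was 0.03 and -0.03 in fl/fl 74 and -0.02 and -0.08 in Δ/Δ 54. Base composition, taken from the longest transcript of each gene, moved most with Δ/Δ 54. From the class of lowest to that of highest GC content its deviation went from -0.17 to 0.31, against 0.18 to -0.09 in Δ/Δ 63, 0.08 to -0.01 in Δ/Δ 65, 0.08 to -0.07 in fl/fl 78 and 0.00 to 0.02 in fl/fl 74. The median length was 1775.5 bases for ribosomal protein genes and 2154 for respiratory chain genes, and 7162 for PI3K and Akt, 5054 for NF-κB, 5090.5 for STAT3 and 3785 for type I interferon targets. The part of length and GC content in these lists was not tested.

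**Figure D4:**
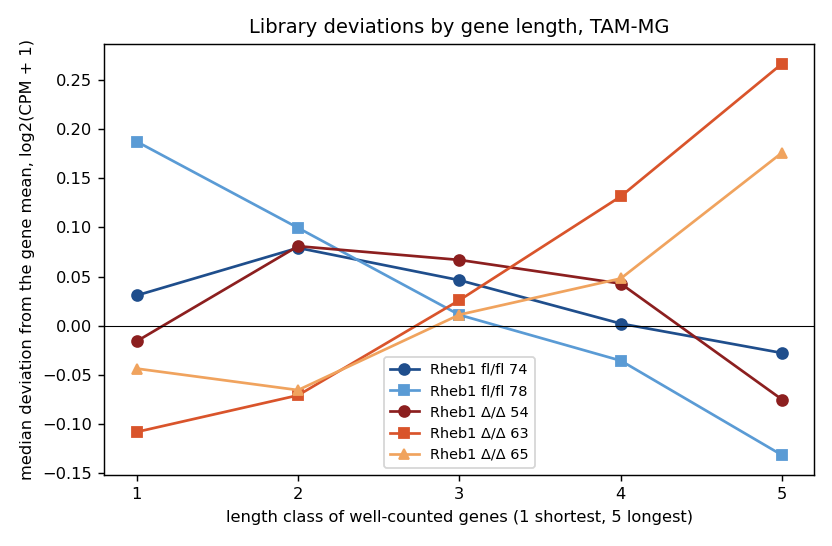
The x axis gives 5 classes of the well-counted genes by exon length, from the shortest to the longest, and the y axis the median deviation of each library from the mean of the gene over libraries, on log2(CPM + 1), with 1 line per library. The line of fl/fl 78 falls from 0.19 to -0.13, those of Δ/Δ 63 and Δ/Δ 65 end at 0.27 and 0.18, and those of fl/fl 74 and Δ/Δ 54 stay between -0.08 and 0.08.

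Dissociation-induced genes were higher in 15 of 18 cases (median 0.49). Fosb, Atf3 and Klf6 were at unadjusted p ≤ 0.02, with differences of 1.36, 1.11 and 1.18, and Klf6 was at 455 and 374 CPM in fl/fl and at 805, 1140 and 872 CPM in Δ/Δ libraries. Fos and Egr1 differed by 0.10 each, with all Δ/Δ libraries between the fl/fl libraries. Hspa1a, a heat shock protein gene with a near-identical neighbour, was at 117 and 8.27 CPM against 803, 610 and 364 CPM (3.24 ± 1.12). Without fl/fl 74 all 18 genes were higher (median 1.49), and without fl/fl 78 there were 9 higher and 9 lower (median -0.05). With centred libraries 8 were higher and 10 lower (median -0.24, beside -0.55 over all genes).

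Genes absent in one group were set apart from the well-counted genes. A gene was taken as absent when every library of one genotype had 0 counts and every library of the other had at least 1. There were 414 such genes absent in fl/fl and 118 absent in Δ/Δ, of which 326 and 39 were tested. With the quasi-likelihood test of edgeR none of these genes was called (238 and 39 at unadjusted p ≤ 0.02), while the likelihood ratio test called 127 and 35 and DESeq2 called 165 and 20. Over all genes tested, 2.90% were higher and 1.0% lower at unadjusted p ≤ 0.02 and 1.5-fold by the quasi-likelihood test. The absent genes were picked for zeros in one genotype, so small p-values are built into the choice. These counts are therefore no evidence of a genotype effect. At 10 or more counts in every library of the other genotype there were 210 and 38 genes, and at 100 or more 32 and 12. The 2 numbers are not alike by design, because a gene must be missed by 2 libraries in the first case and by 3 in the second. The counts rose to 1270 without fl/fl 78 and to 971 without fl/fl 74 for the first, and to 654 without fl/fl 74 and 650 without fl/fl 78 for the second. Leaving out 1 Δ/Δ library gave 692 to 798 and 203 to 269.

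Among genes absent in fl/fl, folds are bounds that take 3 counts over the group as the floor, and they cover counting error only. Mgl2, a galactose-type lectin of macrophages and dendritic cells, had 167, 769 and 1139 counts in Δ/Δ libraries 54, 63 and 65, at least 488-fold higher. Rtel1, a helicase that maintains telomeres, had 603, 376 and 488 counts (at least 345-fold), and Srxn1, sulfiredoxin, an antioxidant enzyme, had 647, 276 and 319 counts (at least 292-fold). Olfr1330, an olfactory receptor gene, had 285, 813 and 802 counts. The tetraspanin Tspan18 (412, 399 and 597 counts), the phospholipid transporter Abcb4 (229, 818 and 344), Tbc1d24 (286, 696 and 257) and the zinc finger gene Zfp870 (4, 459 and 664) complete the 8 with the highest mean CPM. Tbc1d24 overlaps Ntn3 on the same strand, so its reads are uncertain.
Among the lists, 5 genes were absent in fl/fl. Besides Tlr5 and Pik3c2b they were Klrd1, a receptor of NK cells, with 39, 130 and 64 counts in Δ/Δ libraries, Aqp4, the astrocyte water channel, with 112, 20 and 71 counts, and Stat4 with 2, 14 and 22 counts. Aqp4 marks astrocytes and Klrd1 marks NK cells, 2 cell types outside the gate. Their lists as a whole had no common direction. Of 9 tested astrocyte markers 4 were higher and 5 lower (median -0.28). Of 5 tested NK and cytotoxic markers 3 were higher and 2 lower.

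Among genes absent in Δ/Δ, Grk5, a kinase of G protein-coupled receptors, had 1037 and 3 counts in fl/fl libraries 74 and 78, at least 492-fold lower in Δ/Δ, and was not tested because a single library carried it. Svopl had 855 and 102 counts (at least 452-fold), the ADP-ribosyltransferase gene Art2b 739 and 21 counts (at least 359-fold), the ephrin receptor gene Ephb4 651 and 86 counts (at least 348-fold), and the ubiquitin ligase gene Trim16 501 and 160 counts (at least 313-fold). Zfp647 had 339 and 316 counts, the Wnt modulator Dkk3 483 and 118, and glutathione peroxidase Gpx2 199 and 384. In 6 of these 8 genes fl/fl 74 held more than 3 times the counts of fl/fl 78.

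Zeros of the same kind occurred between libraries of one genotype. Genes with 100 or more counts in one library and 0 in another of the same genotype numbered 597 and 643 between the fl/fl libraries, in the 2 directions, and 268 to 411 between pairs of Δ/Δ libraries. Across genotypes, 498 to 863 genes were at 100 or more in a Δ/Δ library and 0 in an fl/fl library, and 219 to 490 the other way. The fl/fl pair thus lay within the first of these ranges and above the second. Single genes reached large values: Lrrc28 had 1738 counts in fl/fl 74 and 0 in fl/fl 78, and Angptl7 had 6147 counts in Δ/Δ 63 and 0 in Δ/Δ 65. Cd79b, a chain of the B cell receptor complex, had 1078 and 2677 counts in fl/fl and 0, 206 and 1378 counts in Δ/Δ libraries.

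**Figure D5:**
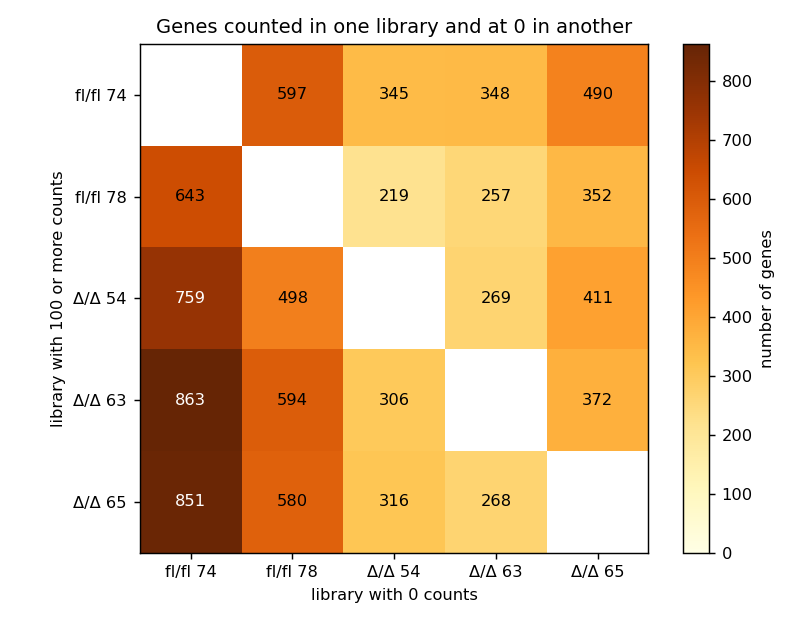
Each cell gives the number of genes with 100 or more counts in the library of its row (y axis) and 0 counts in the library of its column (x axis), with darker cells for higher numbers. The columns of fl/fl 74 (643 to 863 genes) and fl/fl 78 (498 to 597) hold the highest numbers, also where the row is the other fl/fl library.

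Markers of cells outside the gate were scarce, and several defining ones had no count in any library. T cell markers summed to 35.5 and 48.8 CPM in fl/fl and to 40.3 to 53.1 CPM in Δ/Δ libraries, with 3 of 15 at 0 throughout, Cd4 among them. NK and cytotoxic markers summed to 0 and 8.32 CPM against 4.95 to 16.6 CPM, with 5 of 10 at 0 throughout (Ncr1 and Prf1 among them). Klrb1c, the highest of them by mean, was counted in fl/fl 78 and Δ/Δ 65 but in no other library. B cell markers summed to 329 and 715 CPM against 411 to 684 CPM, of which Ighm, the immunoglobulin heavy chain gene, was the largest part at 190 and 566 CPM against 403, 634 and 574 CPM, while Ms4a1 and Pax5 were at 0 throughout. Neutrophil markers summed to 300 and 190 CPM against 312 to 370 CPM, most of it Csf3r, with Ly6g, Mmp9, Elane and Mpo at 0 throughout.
Dendritic cell markers summed to 73.9 and 39.1 CPM against 51.5 to 88.2 CPM, with Batf3 the highest by mean. Endothelial markers had a higher sum in every Δ/Δ library, at 70.7 and 77.4 CPM against 118 to 141 CPM, with Cldn5, a tight junction protein, at 11.1 and 11.99 CPM against 66.8, 42.7 and 26.6 CPM. Without Cldn5 the sums ran from 51.1 to 112 CPM over all libraries, with the lowest in Δ/Δ 54. Of 8 tested endothelial markers 6 were higher and 2 lower. In every Δ/Δ library 1 was higher (12.5%) and 2 were lower (25%), against 14.6% and 11.5% of all genes. Astrocyte markers (259 and 563 CPM against 305 to 431 CPM, with Slc1a3 the highest by mean) overlapped between groups. Oligodendrocyte markers, with Cnp the highest by mean, were at 287 and 245 CPM against 178 to 234 CPM, and neuronal markers at 36.9 and 41.5 CPM against 27.6 to 34.6 CPM. Snap25, the highest neuronal marker by mean, was at 2.96 and 0.052 CPM in fl/fl and at 14.4, 18.1 and 4.66 CPM in Δ/Δ libraries, so its order of groups was not that of the sum. Stromal and erythroid markers were at 3.90 and 3.71 CPM in fl/fl 74 and at 34.2 and 47.9 CPM in fl/fl 78, beside 21.3 to 33.0 and 25.6 to 44.1 CPM in Δ/Δ libraries. In bulk libraries fewer cells of a type and less RNA per cell cannot be told apart.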

How the data were processed

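RNA was prepared with SmartSeq2 and Nextera XT, without strand, and read on a HiSeq4000. The authors deposited a count per gene from STAR, and TPM values (an abundance signal per gene) from Salmon, both on GRCm38. Tool versions were not given in the sources used here. The last row of the TAM-MG tables has no gene name and holds the column totals (for counts, a difference of 0 from the sums over genes), and was left out. Of 50686 identifiers, 99.4% had a name in GENCODE M21, which also gave coordinates and exon lengths.

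Genotypes were compared on the deposited counts by edgeR (version 4.0.16, in R 4.3.3), with filterByExpr (minimum count 10, minimum total 15), TMM and the quasi-likelihood test, with 35814 genes left untested. CPM are scaled by TMM. Calls needed 1.5-fold and, after Benjamini-Hochberg adjustment over all genes tested, p under 0.05. Standard errors were derived from the F statistic. The common biological coefficient of variation was 0.992. Alternatives were edgeR's likelihood ratio test, DESeq2 1.42.0, limma 3.58.1 on log2(TPM + 1) and log2(TPM + 0.1), library size or centring for TMM, no filter and a filter of 10 counts in every library, a fit over all 11 libraries, and leaving out each library.

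The test was first run on simulated counts with known changes. Counting limits cover counting error only.

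The genes and the 41 lists were chosen with earlier results of these data known. Genes named are Rheb and Cx3cr1, genes that the study names for TAM-MG, the first 4 genes of each list described and members at unadjusted p ≤ 0.02 and 1.5-fold, the 10 well-counted genes with the smallest p in each direction, the 8 genes with the highest mean CPM among those absent in a genotype, and for lists of other cells the marker with the highest mean CPM. Lrrc28, Angptl7, Cd79b, Parp14, markers at 0 and any other list member given were named after their values were seen. Some genes that the rule names are not reported here. Promoter sequences are from RefSeq.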

Additional observations from a re-analysis of the deposited data

How the results depend on the processing

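No paired analysis was possible because the fl/fl and Δ/Δ libraries share no replicate numbers. The number of genes called at an adjusted p under 0.05 and 1.5-fold was 0 by edgeR's quasi-likelihood test (1155 at an unadjusted p under 0.05) and stayed at 0 with library size in place of TMM, with centred libraries, with either filter, with limma on log2 TPM and without any 1 library. It was 245 with the likelihood ratio test, 473 with DESeq2 (601 genes without an adjusted p) and 65 in a fit over all 11 libraries. At unadjusted p ≤ 0.02 and 1.5-fold, 580 genes became 1090, 1187, 1223 and 1233 with the likelihood ratio test, DESeq2, all 11 libraries and centred libraries, and 459 to 963 with 1 library left out. For well-counted genes 245 became 378, 572 and 951 with the likelihood ratio test, DESeq2 and centred libraries, 380 when genes under 10 counts in any library were left out of the fit, and 82 to 400 with 1 library left out. Genes absent in fl/fl went from 414 to between 692 and 1270, and genes absent in Δ/Δ from 118 to between 203 and 654, with 1 library left out, which by construction asks for fewer libraries, and to 210 and 38 when 10 or more counts were asked of every library of the other genotype. With 50 counts in place of 100, the largest number of zeros within a genotype was 986 in place of 643 for fl/fl and 775 in place of 411 for Δ/Δ. The cause of the other shifts was not tested. Where 1 fl/fl library was left out, the lone library was assumed to vary like the others.

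Of 143 genes whose log2 difference is given, 99 kept their direction under every alternative, with 1 library left out included, and 44 did not. With centred libraries, where the median of all genes was -0.55, the difference was C1qb -0.62, C1qc -0.40, Ccl3 -0.19, Ccl4 -0.13, Cd274 -0.27, Ctsl -0.59, Cx3cr1 -0.32, Egr1 -0.64, Fos -0.61, H2-D1 -0.30, Hk2 -0.34, Ifnar2 -0.085, Ifngr1 -0.56, Ifngr2 -0.35, Irf1 -0.078, Mlst8 -0.70, Pfkl -0.22, Pik3cb -0.070, Rpl5 -0.56, Sdha -0.49, Sqle -0.46, Stat3 -0.60, Tap1 -0.34, Trem2 -0.38, mt-Co1 -0.39 and mt-Cytb -0.37. On log2(TPM + 1) it was Atp5b 0.041, C1qa 0.030, Ctsl -0.011, H2-K1 0.0015, Nfkbia 0.47, Rpl3 0.062, Sqle -0.49, Tnf 0.28 and mt-Nd1 0.072, and on log2(TPM + 0.1) Atp5b 0.041, C1qa 0.030, Ctsl -0.011, H2-K1 0.0015, Nfkbia 0.47, Rpl3 0.062, Sqle -0.67, Tnf 0.28 and mt-Nd1 0.072. With library size only it was Mlst8 -0.030. With all 11 libraries in 1 fit it was Rpl3 0.024. With 1 library left out the difference ranged as follows: B2m -0.61 to 0.21, C1qa -0.41 to 0.069, C1qb -0.25 to 0.27, C1qc -0.11 to 0.48, C3ar1 -0.88 to 0.038, Cd274 -0.075 to 1.27, Cd74 -0.29 to 1.66, Ctsl -0.28 to 0.33, Cx3cr1 -0.12 to 1.24, Ddit3 -0.72 to 0.46, Egr1 -0.62 to 1.68, Fos -0.45 to 1.03, H2-Eb1 -2.09 to 0.21, H2-K1 -0.57 to 0.65, Hk2 -0.18 to 0.90, Hmgcs1 -0.37 to 0.16, Ifngr1 -0.14 to 0.48, Il1b -1.02 to 0.98, Lamp1 -0.97 to 0.75, Lamp2 -0.55 to 0.078, Mlst8 -0.62 to 0.76, Mtor -0.20 to 2.48, Nfkbia -0.99 to 1.72, Pfkl -0.057 to 1.002, Pik3cb -0.31 to 0.96, Rpl3 -0.18 to 0.15, Rpl5 -0.022 to 0.13, Rps6kb1 -0.72 to 0.060, Sdha -0.052 to 0.31, Sqle -1.76 to 0.71, Stat3 -0.16 to 0.20, Tnf -1.11 to 1.76, mt-Co1 -0.32 to 0.996, mt-Cytb -0.25 to 0.87 and mt-Nd1 -0.73 to 0.87. Of 573 list medians under alternatives, 483 moved by less than the spread between libraries of one genotype, a measure that does not ask for the same sign. The sign held in 14 of 14 settings for type I interferon targets, proliferation and NF-κB. It held in 5 of 14 for cytokines, the fewest of any list, 8 for chemokines and receptors and 9 for pattern receptors.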
